A study of Mus musculus with 23 samples.

Results

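Primary mouse embryonic fibroblasts (MEFs) homozygous for the double dimerization mutant of the glucocorticoid receptor (GR), GRD+L/D+L, were compared with GRwt/wt MEFs after both had been stimulated with dexamethasone (Dex). The comparison took the 3 GRD+L/D+L and the 3 GRwt/wt libraries labelled as Dex-treated, which are 6 of the 23 libraries of the series. Each library came from a primary culture of a different FVB/NJ embryo, and all received 10 nM Dex, a synthetic glucocorticoid, for 5 h before RNA was isolated. The D change replaces an alanine by a threonine in the DNA-binding domain, and the L change replaces an isoleucine by an alanine in the ligand-binding domain. The D+L allele carries both changes in the same receptor protein. It went back to a single founder pup, edited in a zygote that already carried the D allele and backcrossed to FVB/NJ for 5 generations, so the mutant cultures share 1 edited chromosome. No unstimulated library was used, and a basal difference between the genotypes and a different response to Dex cannot be told apart in these values. The 3 GRD/D and 3 GRL/L Dex libraries, treated in the same way, shared the estimate of the spread and are quoted where the single mutants are set beside the double mutant.

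GR is a ligand-activated transcription factor that waits in the cytoplasm in a complex with chaperones such as Hsp90 and the FK506-binding proteins. A bound glucocorticoid sends it to the nucleus, where a homodimer binds the glucocorticoid response element, a palindrome with 2 mirrored arms, and switches on genes such as Fkbp5, Tsc22d3 and Dusp1. Fibroblasts are a classical glucocorticoid target, in which these genes are induced within hours while many inflammatory and matrix genes are repressed. The comparison asks which genes reached another level under a low dose of Dex when both dimer-related domains of the receptor carried a change.

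The 6 libraries held 16452539 to 21141077 counts, and 18804 to 20200 genes had at least 1 count. All 13 fibroblast markers were counted in both groups and none was called different, with summed levels of 44850 to 65030 CPM (counts divided by a TMM-corrected library size) in GRwt/wt and 53020 to 74020 CPM in GRD+L/D+L. A library stood apart in each group. GRD+L/D+L replicate 1 ranked its genes most like GRL/L replicate 3 (Spearman's rho 0.979 over all genes tested), while the other GRD+L/D+L libraries had a rho of 0.992 with each other. GRwt/wt replicate 1 reached at most 0.971 with any library, and its deviations from the mean of the libraries followed the GC content of the genes (rho 0.394). The Y-linked and Xist transcripts marked GRwt/wt replicate 1 as the only female culture of the 6. Counts are also given from the 6 fits that each leave out 1 of the compared libraries, and the calls lost in any of them are stated for the genes that were followed singly through these fits. The share of all genes called moved with the library left out. It was 3.94% higher and 6.77% lower without GRD+L/D+L replicate 1, 1.01% and 1.21% without its replicate 2, and 1.36% and 1.81% without its replicate 3. Without GRwt/wt replicate 1 it was 1.66% higher and 3.45% lower, without replicate 2 it was 3.02% and 2.95%, and without replicate 3 it was 2.03% and 1.85%. Of the 13 fibroblast markers 1 was called higher and 1 lower without GRD+L/D+L replicate 1. There was 1 lower without GRwt/wt replicate 1 and 1 higher without GRwt/wt replicate 2, and the other fits of this kind called none.

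Nr3c1, which encodes GR itself, was higher in the mutant. It lies at chr18:39410545-39519421 on the minus strand of GRCm38, with no overlapping gene. Its level was 43.9, 81.4 and 76.8 CPM in GRwt/wt replicates 1 to 3 and 119, 267 and 229 CPM in GRD+L/D+L replicates 1 to 3. All 3 mutant libraries lay above all 3 wild-type libraries, a mean ratio of 3.04, with a log2 fold change (LFC) of 1.60 (SE 0.28) and an adjusted p of 0.0067 in edgeR's quasi-likelihood test. The mean was 92.8 CPM in GRD/D and 134 CPM in GRL/L. Counts per gene do not show the base changes, so the genotype labels could not be checked on this gene.

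Of 14818 genes tested, 814 (5.49%) passed the thresholds of the study, namely an adjusted p no greater than 0.05 with an LFC of 1 or more in either direction. The mutant was higher for 360 genes (2.43%) and lower for 454 (3.06%), and 658 of the 814 were protein-coding. The falls were larger than the rises: 210 genes were lower by an LFC of 2 or more and 86 were higher by as much. For 722 of the 814 the 2 groups did not overlap in CPM, against 30.5% of all genes tested. The median LFC over all genes tested was -0.01. Without GRD+L/D+L replicate 1 the count was 1624 genes (597 higher, 1027 lower), and 713 of the 814 remained among them. Leaving out GRwt/wt replicate 1 gave 775 genes, of which 543 were among the 814, and leaving out GRD+L/D+L replicate 2 or 3 gave 337 and 481. A fit of the 6 libraries alone, in which fewer libraries estimate the spread, called 8 genes. Among them Fkbp5, Per1, Map7d2, Adh7 and Gm8615 were lower, and Mid1 and Greb1l were higher. An unadjusted p under 0.05 was reached by 5078 genes in the fit of 12 libraries and by 3158 in the fit of 6. The single mutants, which share the spread in the fit of 12, differed less among their own libraries. The mean chi-square per gene between 2 libraries of a group was 8.97 to 28.1 in GRD/D and 13.0 to 31.5 in GRL/L. It was 64.5 to 115.7 in GRwt/wt and 14.75 to 115.5 in GRD+L/D+L, so the shared spread may be too small for the compared groups. The part of this in the 814 calls was not tested.

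**Figure D1:**
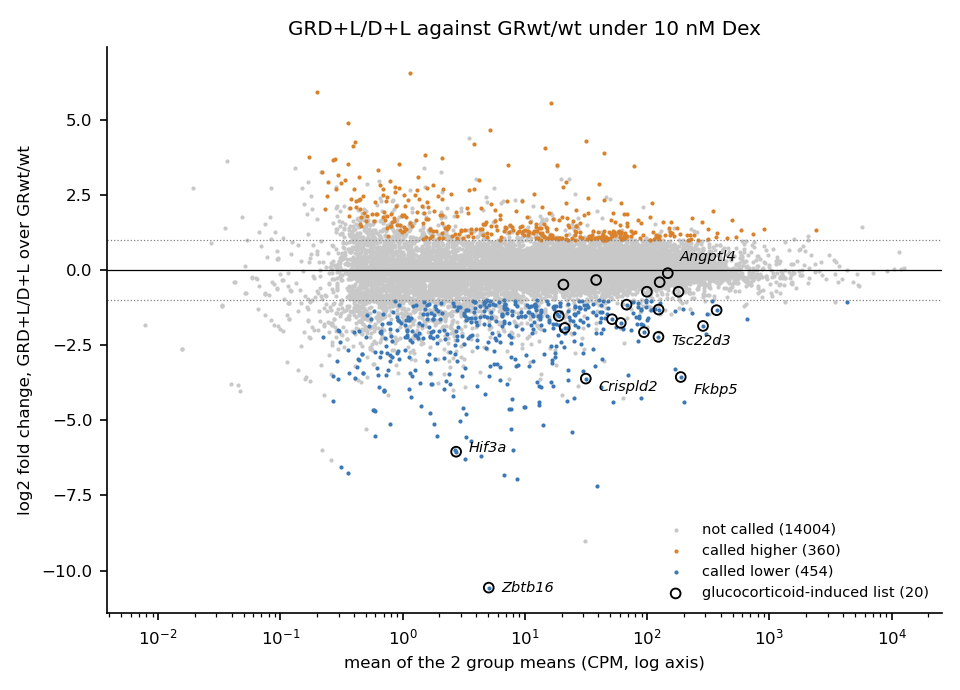
Each point is 1 of the 14818 genes tested, with its mean level in CPM on a logarithmic x axis and its LFC of GRD+L/D+L against GRwt/wt under Dex on the y axis. Coloured points are the 360 genes called higher and the 454 called lower, and circles mark the glucocorticoid-induced list, whose 20 members all lie below 0.

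The genes that glucocorticoids switch on were lower in the mutant. Of a list of 20 glucocorticoid-induced genes, all tested, 14 were lower and none was higher, where 3.06% of all genes tested were called lower. The median LFC of the list was -1.59, against -0.01 over all genes, and it was -1.49, -1.68 and -1.77 when each mutant library was set against the wild-type mean. In 16 of the 20 all 3 mutant libraries lay below all 3 wild-type libraries, which was so for 14.3% of all genes. The list was chosen with earlier results of these data known, and is no independent evidence of its direction. Without GRD+L/D+L replicate 1 it held 15 lower genes, and without GRwt/wt replicate 1 it held 14.

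Fkbp5, an FK506-binding protein that sits in the receptor's own chaperone complex and lowers its affinity for hormone, was the clearest member. It spans chr17:28399094-28517527 on the minus strand and is overlapped by predicted genes on both strands. Its level was 345, 385 and 312 CPM in the GRwt/wt libraries and 21.8, 36.1 and 30.4 CPM in the GRD+L/D+L libraries. The mean was 11.8-fold lower in the mutant (LFC -3.56, SE 0.18, adjusted p = 1.5e-05 in edgeR's test).

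Tsc22d3 encodes GILZ, a leucine-zipper protein that carries much of the anti-inflammatory action of glucocorticoids, and lies at chrX:140539528-140600659 with no overlapping gene. GRwt/wt cultures had 209, 167 and 237 CPM, and mutant cultures had 25.3, 58.0 and 47.5 CPM (LFC -2.23, SE 0.26, adjusted p = 0.0013). Dusp1 encodes the phosphatase that switches off p38 and JNK, and its annotated span (chr17:26505590-26562128, minus strand) is shared with Ergic1 on the other strand. Its 3 mutant libraries, at 9.92, 9.95 and 9.29 CPM, lay close together and below the wild-type libraries at 33.0, 28.8 and 22.7 CPM (LFC -1.53, SE 0.17). The clock gene Per1 (chr11:69095217-69109960, no overlapping gene) fell from 82.7, 83.2 and 68.7 CPM to 26.8, 26.3 and 22.2 CPM (LFC -1.64, SE 0.12). Per1 and Fkbp5 were the members that also passed with the 6 libraries alone. Klf9, a zinc-finger factor of the Kruppel family, was lower by an LFC of -1.15 (SE 0.15), with 78.7 to 104 CPM in the wild-type and 35.7 to 48.3 CPM in the mutant cultures.

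Sgk1, the serum- and glucocorticoid-induced kinase, showed 139, 189 and 204 CPM in wild-type and 57.5, 76.9 and 78.9 CPM in mutant cultures (LFC -1.32, SE 0.17, adjusted p = 0.0023). The metallothioneins Mt1 and Mt2, which bind zinc and lie side by side on chromosome 8, were both lower. Mt2 was counted at 372, 597 and 380 CPM against 131, 96.4 and 144 CPM (LFC -1.86, SE 0.23), and Mt1 had an LFC of -1.34 (SE 0.15). The groups did not overlap for either of them.

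A further set of members was low or not counted in the mutant. Zbtb16, a zinc-finger repressor, had 2.74, 16.8 and 10.8 CPM in the wild-type libraries and no count in any mutant library, so that the mutant was at least 58.4-fold lower against a floor of 3 counts per library. Hif3a, a negative regulator of hypoxia signalling, read 3.78, 9.29 and 3.14 CPM against 0.109, 0.116 and 0 CPM (LFC -6.05, SE 0.77). Crispld2, a secreted protein that binds lipopolysaccharide, was counted at 74.8, 44.1 and 56.0 CPM against 6.43, 1.74 and 6.06 CPM (LFC -3.62, SE 0.61, adjusted p = 0.0055). In each of the 3 genes the groups were far apart, and the wild-type cultures differed among themselves by several-fold for Zbtb16 and Hif3a.

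The remaining lower members were Cebpd (LFC -1.93, SE 0.39), a transcription factor of adipocyte differentiation, Glul (LFC -1.76, SE 0.37), which makes glutamine, and Rgs2 (LFC -2.07, SE 0.47), a brake on G protein signalling, which lost its call without GRD+L/D+L replicate 2 or 3. Ddit4, an inhibitor of mTOR, had an LFC of -0.72 (adjusted p = 0.0019) and Bcl6, a transcriptional repressor, one of -0.33 (adjusted p = 0.043), both under the fold threshold. Nfkbia, which encodes the inhibitor of NF-kB, did not pass (LFC -0.49, adjusted p = 0.14). The 3 others varied more within than between the groups. Errfi1, a feedback inhibitor of the EGF receptor, had 248, 35.7 and 42.8 CPM in the mutant cultures, and Pdk4, which restrains pyruvate oxidation, had 259, 88.0 and 62.1 CPM, with replicate 1 inside or above the wild-type range in both. Angptl4, an inhibitor of lipoprotein lipase, had 37.0, 355 and 66.9 CPM in the wild-type and 85.6, 160 and 180 CPM in the mutant cultures (LFC -0.11, adjusted p = 0.93). Without GRwt/wt replicate 2 its LFC was 1.45 and it was called higher.

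**Figure D2:**
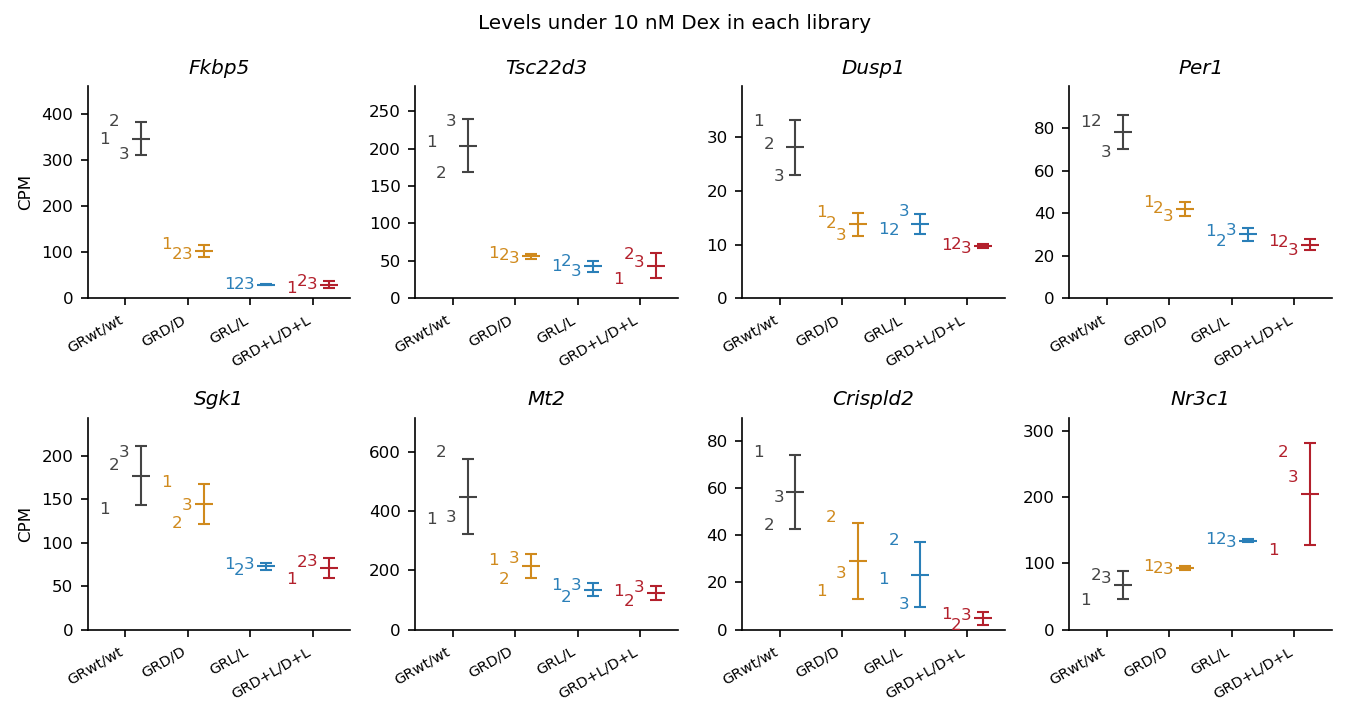
Levels in CPM of Fkbp5, Tsc22d3, Dusp1, Per1, Sgk1, Mt2, Crispld2 and Nr3c1 in the 12 Dex libraries of the 4 genotypes. Numerals are replicates and bars are mean ± SD (n = 3). The GRD+L/D+L values lie below all GRwt/wt values in 7 panels, and above them for Nr3c1.

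Promoters of genes that were lower in the mutant were read for the palindrome that a GR dimer binds. The motif searched was AGAACA, any 3 bases, then TGTTCT, with up to 2 mismatches in the arms, on both strands, in windows of 250 bases before to 50 after each start site taken from RefSeq on GRCm38.p6. It was found in 1.85% of all 32841 promoters, in 1.1% of the 13945 promoters of genes tested, in 2.9% of the 414 promoters of the 309 lower genes that matched and in 0.847% of the 236 promoters of the 190 higher genes that matched. Of the 17 matched members of the glucocorticoid-induced list only Sgk1 had a match. A single arm, AGAACA, stood in 12.4% of promoters of genes tested and in 14.3% and 13.6% of those of lower and higher genes. The promoters of Sgk1 (chr10:21993640-21993939, plus strand, ahead of a start site inside the gene's span), Trim63 (chr4:134314870-134315169, plus strand) and Fam107a (chr14:8309728-8310027, minus strand) are printed because they hold the matches with 0, 1 and 2 mismatches in genes whose groups were well separated. Capitals mark the matched 15 letters, which begin 189, 209 and 121 bases before the start site.
Sgk1: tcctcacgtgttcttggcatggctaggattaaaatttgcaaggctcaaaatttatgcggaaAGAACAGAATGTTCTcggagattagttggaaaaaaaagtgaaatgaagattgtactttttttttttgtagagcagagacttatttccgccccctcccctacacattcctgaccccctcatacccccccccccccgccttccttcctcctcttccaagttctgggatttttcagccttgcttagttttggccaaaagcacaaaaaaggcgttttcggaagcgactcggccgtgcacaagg
Trim63: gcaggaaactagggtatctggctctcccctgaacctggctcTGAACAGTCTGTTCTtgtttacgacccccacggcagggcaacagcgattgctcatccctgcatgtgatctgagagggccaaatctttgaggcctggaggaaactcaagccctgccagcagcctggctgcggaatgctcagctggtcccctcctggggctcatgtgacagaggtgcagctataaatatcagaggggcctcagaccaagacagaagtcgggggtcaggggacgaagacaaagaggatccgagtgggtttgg
Fam107a: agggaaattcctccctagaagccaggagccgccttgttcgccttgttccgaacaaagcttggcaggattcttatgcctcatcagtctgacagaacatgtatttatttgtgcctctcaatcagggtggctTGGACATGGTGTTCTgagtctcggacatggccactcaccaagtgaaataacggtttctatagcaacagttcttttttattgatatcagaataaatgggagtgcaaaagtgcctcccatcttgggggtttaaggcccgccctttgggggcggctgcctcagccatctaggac
A match describes the letters in the window and was not tested for binding.

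Trim63, the muscle ubiquitin ligase MuRF1 and an established glucocorticoid target in muscle, was at a low level in these fibroblasts: 1.39, 1.17 and 1.44 CPM in wild-type and 0.0545, 0.116 and 0.0577 CPM in mutant cultures (LFC -4.03, SE 0.73, adjusted p = 0.0075). The actin-associated gene Fam107a read 14.2, 4.79 and 6.84 CPM against 0.273, 0.0578 and 0 CPM (LFC -6.18, SE 1.02). It belonged to a list of 4 earlier Dex responders of this series, of which Card14 (LFC -5.52, SE 0.65), a scaffold of NF-kB signalling, and Wee1 (LFC -1.23, SE 0.14), the kinase that holds cells before mitosis, were lower as well. Zhx3, a zinc-finger homeobox factor, had an LFC of -0.92 (adjusted p = 0.0082), under the fold threshold. These 4 genes were picked on libraries of this series, so their direction is not independent evidence.

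Klf15 and Slc10a6 were named after their low values in the mutant were seen, and are given as a description. Klf15, a factor of amino acid and lipid metabolism, stood at 12.6, 14.0 and 13.2 CPM in wild-type and at 1.64, 0.463 and 0.75 CPM in mutant cultures (LFC -3.79, SE 0.37). Slc10a6, a carrier of sulphated steroids whose promoter holds a match to the palindrome, had an LFC of -4.77 (SE 0.80). Both kept their calls in each of the 6 fits that left out 1 of the compared libraries, and Slc10a6 reached at most 4.83 CPM.

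By the rule of largest change among called protein-coding genes of at least 10 CPM whose groups did not overlap, the falls were led by Zbtb16, described with the glucocorticoid-induced list, and Tfap2b, a transcription factor of neural crest and limb. Tfap2b had 2.39, 24.6 and 23.9 CPM in wild-type and 0.382, 0 and 0 CPM in mutant cultures (LFC -6.95, SE 1.22). Map7d2, a microtubule-associated protein, was at 16.6, 11.5 and 16.7 CPM against 0.654, 0.231 and 0.231 CPM (LFC -5.29, SE 0.81) and was the one of these 10 genes that passed with the 6 libraries alone.

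The aldehyde dehydrogenase Aldh1a7 was at 131, 58.9 and 111 CPM against 12.1, 0.694 and 1.44 CPM (LFC -4.39, SE 0.85). Its neighbour on chromosome 19, Aldh1a1, a retinaldehyde dehydrogenase of closely related sequence, read 91.8, 37.9 and 33.4 CPM against 7.79, 3.82 and 4.04 CPM (LFC -3.38, SE 0.43), and reads of the pair may be split between copies. Fmod (LFC -4.25, SE 0.68), a collagen-binding proteoglycan, Eln (LFC -3.90, SE 0.85), elastin, and Tnn (LFC -4.48, SE 1.00), a tenascin, encode matrix proteins. Fmod read 40.1, 196 and 269 CPM against 11.8, 3.12 and 11.7 CPM, and Eln 19.6, 132 and 86.3 CPM against 3.38, 3.76 and 8.83 CPM. In both genes GRwt/wt replicate 1 was the wild-type library nearest to the mutant. Msx1 (LFC -4.62, SE 0.87), a homeobox factor, Olfml1 (LFC -4.40, SE 1.09) and Spock3 (LFC -4.28, SE 1.16), a secreted proteoglycan, completed the 10. Without 1 library, Spock3 kept its call in 2 of 6 fits (lost without replicate 2 or 3 of either group), Olfml1 and Tnn in 4 (lost without GRD+L/D+L replicate 2 or 3) and Eln in 5 (lost without GRD+L/D+L replicate 2).

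The rises were led by Meox1, a homeobox factor of the somites, with 1.15, 0.61 and 0.188 CPM in wild-type and 2.07, 59.7 and 33.7 CPM in mutant cultures (LFC 5.57, SE 1.14). The same shape, replicate 1 of the mutant near the wild type and replicates 2 and 3 far above it, was seen in Kcnj15, a potassium channel, with 10.4, 8.02 and 11.1 CPM against 11.3, 108 and 91.8 CPM (LFC 2.85, SE 0.62). Dgkk (LFC 4.04, SE 0.82), a diacylglycerol kinase, Ano5 (LFC 3.49, SE 0.68), an anoctamin of muscle and bone, Wdr72 (LFC 2.53, SE 0.65) and Crybg3 (LFC 2.32, SE 0.48) had their lowest mutant value in replicate 1 as well. Kcnj15 lost its call without GRD+L/D+L replicate 2, and Wdr72 lost it without GRD+L/D+L replicate 2 or 3 or GRwt/wt replicate 1 or 3.

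Nhs and Foxd1 were high in all 3 mutant cultures. Nhs, mutated in a cataract and dental syndrome, read 2.59, 6.66 and 6.03 CPM against 19.1, 43.5 and 52.3 CPM (LFC 2.91, SE 0.41). Foxd1, a forkhead factor of stromal progenitors, had 3.88, 2.58 and 3.08 CPM against 18.4, 15.7 and 13.0 CPM (LFC 2.30, SE 0.69), but its adjusted p of 0.044 rose above 0.05 in each fit that left out 1 of the compared libraries (0.057 to 0.1). Aldh1a3 (LFC 3.51, SE 0.80), a retinaldehyde dehydrogenase, and Doc2b (LFC 2.30, SE 0.55), a calcium sensor of exocytosis, were the others. Both lost their calls without GRD+L/D+L replicate 2 and without GRwt/wt replicate 3, and Doc2b also without GRwt/wt replicate 1. Outside the rule, Greb1l stood at 3.78, 2.96 and 3.70 CPM against 13.1, 13.9 and 13.6 CPM (LFC 1.96, SE 0.19), and Mid1, a microtubule-bound ubiquitin ligase on the X chromosome, at 24.1, 21.9 and 21.1 CPM against 68.4, 95.2 and 86.9 CPM (LFC 1.90, SE 0.23). Both held with the 6 libraries alone.

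Among genes that GENCODE M21 does not label as protein-coding, Meg3, a maternally expressed imprinted RNA, was higher. It was at 496, 859 and 906 CPM in mutant against 316, 209 and 191 CPM in wild-type cultures (LFC 1.66, SE 0.27). Meg3 was not called with an offset for GC content and gene length (LFC 0.78, adjusted p = 0.20). Zfp469, which carries the label lincRNA in that annotation (LFC 1.66, SE 0.30), and Pcdhgb8 of the protocadherin gamma cluster (LFC 1.53, SE 0.25) were higher too. Pcdhgb8 shares its span with many members of that cluster. Gm8615 had 12.5, 14.4 and 13.6 CPM in wild-type and 0.0545, 0.174 and 0.115 CPM in mutant cultures (LFC -6.81, SE 0.63). It lies within the span of Hmgb1 on the same strand. Gm6166 (LFC -1.21) and Gm4735 (LFC -1.03) were the other falls, each called in 3 of the 6 fits without 1 library and lost without GRD+L/D+L replicate 2 or 3, and without GRwt/wt replicate 1 (Gm6166) or 3 (Gm4735).

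Genes of embryonic position differed between the cultures in both directions. Of 36 Hox genes tested, 11 were lower (3.06% of all genes tested were) and 2 higher (2.43%). The lower ones were Hoxa10, Hoxa11, Hoxa13, Hoxc9, Hoxc10, Hoxc11, Hoxc13, Hoxd8, Hoxd9, Hoxd10 and Hoxd12, which belong to the middle and posterior groups of their clusters, and the higher ones were Hoxa6 and Hoxa7. Hoxa13, the most posterior gene of its cluster, had 0.747, 27.5 and 28.4 CPM in wild-type and 1.96, 0 and 0.404 CPM in mutant cultures (LFC -4.55, SE 1.25). Wild-type replicate 1 lay among the mutant libraries. Hoxd8, by contrast, was at 30.3, 24.2 and 28.9 CPM against 8.29, 3.64 and 12.2 CPM with no overlap (LFC -1.79, SE 0.44), and Hoxa7 was at 158 and 134 CPM in mutant replicates 2 and 3 but at 9.92 CPM in replicate 1, below the 3 wild-type libraries at 19.9 to 23.9 CPM. Leaving out 1 compared library at a time gave 3 to 13 lower and 0 to 8 higher Hox genes, with the most of both without GRD+L/D+L replicate 1 and the fewest lower ones without GRD+L/D+L replicate 2 or 3 or GRwt/wt replicate 3. Hoxa13 and Hoxd12 were called in 2 of these 6 fits, those without a replicate 1, Hoxc11 in 3 and Hoxa11 in 4, both lost without GRD+L/D+L replicate 2 or 3 and Hoxc11 also without GRwt/wt replicate 3. The median of the list was 0.21.

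Of 42 limb and trunk patterning factors tested, 14 were lower (against 3.06% of all genes) and 3 higher (against 2.43%), with a median LFC of -0.59. Tbx4 and Pitx1, which specify the hindlimb, read 0.348, 45.1 and 36.4 CPM (Tbx4) and 0.846, 25.0 and 17.3 CPM (Pitx1) in wild-type cultures, against 2.23, 0 and 0 CPM and 1.64, 0 and 0.0577 CPM. For both, wild-type replicate 1 was lower than mutant replicate 1. Tbx15 at 128, 173 and 157 CPM against 69.6, 25.9 and 56.5 CPM (LFC -1.59), Hand2 at 19.1, 11.5 and 15.1 CPM against 5.56, 1.62 and 4.50 CPM (LFC -1.96), Osr2 (LFC -3.18) and Msx2 (LFC -3.88) did not overlap between the groups. Hic1 (LFC 1.13) joined Meox1 and Foxd1 among the higher genes. Without 1 compared library, 6 (without GRD+L/D+L replicate 2) to 17 (without GRD+L/D+L replicate 1) members were lower, and Tbx4 and Pitx1 kept their calls in 2 of the 6 fits, those without a replicate 1. Markers of other cells also varied between the libraries, though not in the pattern of Tbx4 and Pitx1. The summed cartilage and bone markers were 84.7, 247 and 321 CPM in wild-type and 356, 64.1 and 55.7 CPM in mutant cultures. Comp was called lower (in 2 of the 6 fits without 1 library). The neural and glial markers were 158, 201 and 276 CPM against 269, 39.6 and 66.9 CPM, with none of the 6 tested called. The mesothelial sum was 188, 54.0 and 97.8 CPM against 87.2, 13.1 and 21.9 CPM. Without GRD+L/D+L replicate 1, 5 of 8 cartilage and bone, 4 of 6 neural and 5 of 6 mesothelial markers were called lower, in a fit that called 6.77% of all genes lower. Of the other marker lists, the adipocyte gene Fabp4 was called lower (in 3 of the 6 fits), and no macrophage, endothelial, epithelial or skeletal muscle marker was called. Their part in these results was not tested, and in bulk RNA fewer cells of a type and less RNA per cell cannot be told apart.

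**Figure D3:**
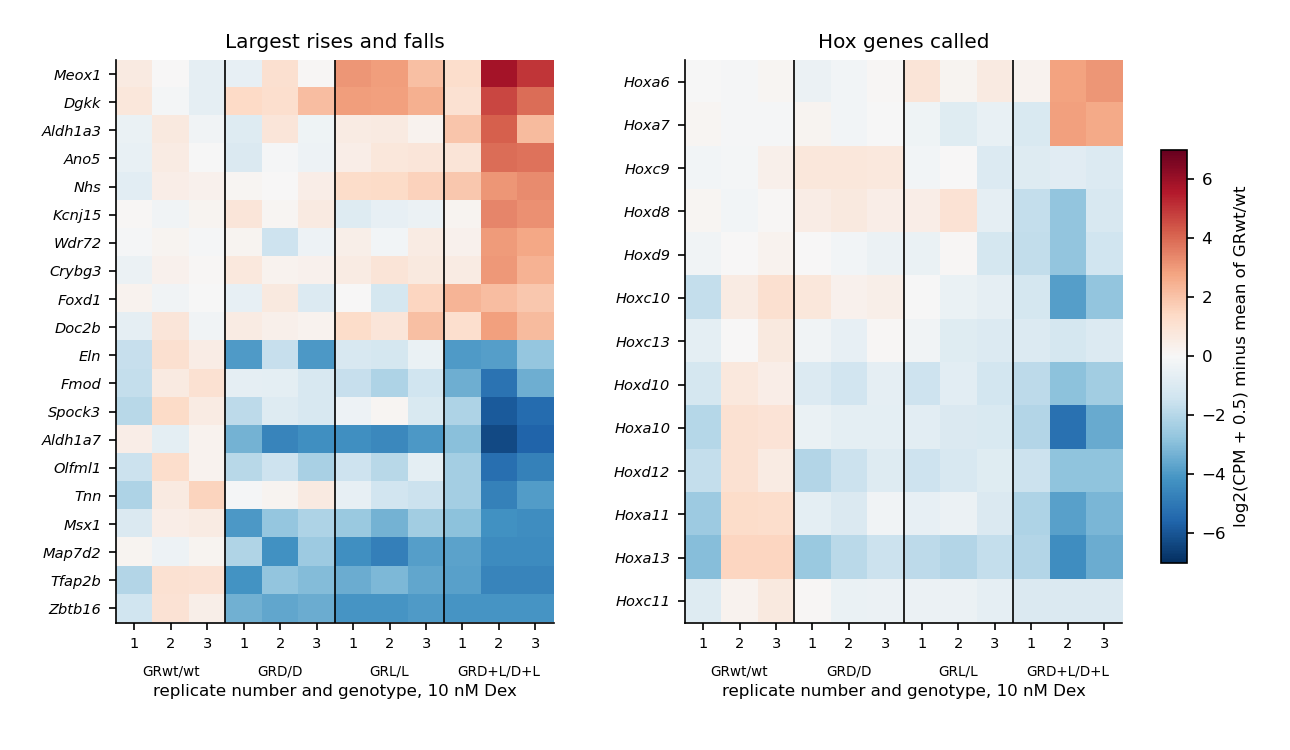
Heat map of log2(CPM + 0.5) minus the GRwt/wt mean for the 20 protein-coding genes with the largest changes and the 13 Hox genes called, in columns of the 12 Dex libraries. GRD+L/D+L replicate 1 is nearer to the wild type than replicates 2 and 3 for Meox1 and Kcnj15, and GRwt/wt replicate 1 is low for Hoxa13 and Hoxa11.

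Genes of sterol and fatty acid synthesis all had LFCs below 0 (23 of 23 tested, median -1.30), and 7 were called lower (against 3.06% of all genes) and none higher. The called members included the mevalonate pathway enzymes Mvk, Mvd and Fdps, the squalene and lanosterol enzymes Fdft1 and Lss, and Dhcr7, which acts late in the pathway to cholesterol. Lss was at 83.0, 24.7 and 95.0 CPM in wild-type and at 27.8, 18.4 and 20.1 CPM in mutant cultures (LFC -1.61, SE 0.40). Wild-type replicate 2 lay within the mutant range, and the same library was low for Mvd and Fdps. Dhcr7, at 79.6, 44.6 and 81.4 CPM against 25.8, 23.2 and 25.1 CPM (LFC -1.47, SE 0.22), did not overlap. In only 2 of the 23 members all mutant libraries lay below all wild-type libraries, against 14.3% of all genes. Without wild-type replicate 2, 17 members were lower (2.95% of all genes were in that fit), without GRD+L/D+L replicate 1 it was 10, and without any other compared library it was 1, with Lss, Mvd and Fdps losing their calls. With the sex of the culture as a covariate 2 members were called lower (median -1.16), with Mvd and Fdps among those lost, and with DESeq2 15 were. GRwt/wt replicate 1 was the only female culture of the 6. Against wild type the median of the list was -0.10 in GRD/D, with 0 called lower (0.952% of all genes were), and -1.07 in GRL/L, with 6 called lower (1.99% of all genes).

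Of 25 genes of glycolysis and hypoxia 4 were lower (against 3.06% of all genes), and the median LFC was -0.60. Aldoc, an aldolase, was at 15.6, 8.12 and 23.6 CPM against 2.56, 0.752 and 1.96 CPM (LFC -3.15, SE 0.48). Slc16a3, the lactate exporter MCT4, had an LFC of -1.41 (SE 0.28), Ndrg1, a hypoxia-induced gene, of -1.32 (SE 0.26) and Car9, a carbonic anhydrase, of -1.84 (SE 0.53). Car9 reached at most 2.86 CPM and kept its call in 1 of the 6 fits without 1 library, the one without GRwt/wt replicate 1. Against wild type the list's median was 0.22 in GRD/D and -0.82 in GRL/L.

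None of 75 subunits of oxidative phosphorylation tested was called. Of these, 72 had LFCs below 0 and 3 above, with a median of -0.33, and 39 were lower at an adjusted p of 0.05 without the fold threshold, as 7.73% of all genes were. In 54 of the 75 all mutant libraries lay below all wild-type libraries, against 14.3% of all genes. Of 80 cytosolic ribosomal protein genes 75 were below 0 with a median of -0.22, and none was called. An offset for GC content and gene length brought the medians to -0.15 and -0.05, and leaving out GRwt/wt replicate 1, the library whose values followed GC content, brought them to -0.25 and -0.09.

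Of the signalling lists, the FGF genes held calls on both sides, and the TGF-beta, BMP and Wnt genes held lower calls only. Of 18 FGF genes 5 were higher (against 2.43% of all genes), Fgf1 and the feedback inhibitors and target of the pathway Spry1, Spry2, Spry4 and Etv4, and 3 were lower (against 3.06%), Fgf5, Fgf13 and the receptor Fgfr2. Spry4 was at 6.22, 10.5 and 5.52 CPM against 17.4, 19.8 and 21.5 CPM (LFC 1.39, SE 0.26), and Etv4 at 6.27, 5.16 and 3.64 CPM against 12.4, 13.8 and 15.9 CPM (LFC 1.48, SE 0.26), both without overlap. Fgfr2 was at 68.0, 125 and 168 CPM against 54.2, 27.2 and 40.4 CPM (LFC -1.56, SE 0.31). Of the higher members, Fgf1 and Spry4 lie within 2 Mb of Nr3c1, where 9 of 51 genes tested were called. Fgf1 was near the floor, with means of 0.199 CPM in wild-type and 2.87 CPM in mutant cultures. Without 1 library 4 to 6 members were higher and 1 to 3 lower. Fgf5 kept its call in 2 of the 6 fits, those without a replicate 1, and Fgf13 in 3, lost without GRD+L/D+L replicate 3 or GRwt/wt replicate 2 or 3.

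Of 32 TGF-beta and BMP genes 5 were lower (against 3.06% of all genes) and none higher. Fst, follistatin, which captures activin, was at 31.5, 32.2 and 36.2 CPM against 9.27, 4.74 and 5.02 CPM (LFC -2.39, SE 0.24, adjusted p = 0.00094). Inhbb (LFC -1.47, SE 0.44), an activin subunit, Tgfbr3 (LFC -1.29, SE 0.34), a co-receptor, and Bmp6 (LFC -1.01, SE 0.26) were lower too. Without 1 library 2 to 7 members were lower and 0 to 2 higher, and Inhbb and Tgfbr3 kept their calls in 2 of the 6 fits, those without a replicate 1. Of 28 Wnt genes 3 were lower (against 3.06% of all genes) and none higher. They were the ligand Wnt16 (LFC -3.0, SE 0.56) and the secreted Dickkopf proteins Dkk2 (LFC -2.48, SE 0.73) and Dkk3 (LFC -1.43, SE 0.40). Without 1 library 1 to 8 members were lower and 0 to 4 higher, with 8 and 4 reached without GRD+L/D+L replicate 1, and Dkk2 and Dkk3 kept their calls in 2 of the 6 fits, those without a replicate 1.

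In the matrix lists 1 of 23 collagens was called, Col5a3 (LFC 1.23, SE 0.37), and 1 of 22 proteases and inhibitors, the aggrecanase Adamts4 (LFC 1.07, SE 0.21), both higher, where 2.43% of all genes were. Both shares are near that of all genes. Col5a3 kept its call in 2 of the 6 fits without 1 library, those without GRD+L/D+L replicate 1 or GRwt/wt replicate 2, and Adamts4 in 4, lost without GRwt/wt replicate 1 or 3. The collagens called higher were 0 to 4, with 4 (and 2 lower) without GRD+L/D+L replicate 1. The proteases and inhibitors called higher were 0 to 4 as well, with 4 without GRwt/wt replicate 2, where 3.02% of all genes were, and with 2 higher and 2 lower without GRD+L/D+L replicate 1. Of 29 other matrix genes 4 were lower (against 3.06% of all genes) and 1 higher (against 2.43%). The lower ones were Fmod, Eln, Ccn2 (LFC -1.61, SE 0.30), a matricellular growth factor, and the crosslinking enzyme Lox (LFC -1.08, SE 0.31). Vcan, versican, was higher (LFC 1.36, SE 0.37), and kept its call in 2 of the 6 fits, those without GRD+L/D+L replicate 1 or GRwt/wt replicate 2. Without 1 library 2 to 5 of these matrix genes were lower and 0 to 3 higher. Inflammatory mediators, which glucocorticoids repress in fibroblasts, were called in 2 of 17 cases, 1 higher and 1 lower, where 5.49% of all genes were called in either direction. A single gene each way is near the shares of all genes. Without 1 library 0 to 2 mediators were higher and 0 to 3 lower. The most of both came without GRD+L/D+L replicate 1, where 3.94% of all genes were higher and 6.77% lower. The chemokine Ccl2 was higher, at 3.98, 5.11 and 6.72 CPM against 7.20, 29.4 and 30.3 CPM (LFC 2.08, SE 0.55, adjusted p = 0.028), and it kept the call in 1 of the 6 fits without 1 library, the one without GRD+L/D+L replicate 1. The acute-phase gene Saa3 was lower (LFC -6.28, SE 1.51), but not without GRD+L/D+L replicate 2 or 3. Il6, Cxcl2, Cxcl10, Csf3, Nos2 and Lcn2 were too low to be tested, with at most 20 counts in a library. Macrophage markers, another source of such transcripts, summed to 33.2, 105 and 17.6 CPM in wild-type and 83.4, 8.21 and 59.5 CPM in mutant cultures, with overlapping groups.

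Among 22 genes of the receptor's own machinery, Nr3c1 was higher (2.43% of all genes were), and Hsd11b1 (LFC -2.65, SE 0.65) and Hsd11b2 (LFC -2.78, SE 0.59), the enzymes that activate and inactivate natural glucocorticoids, were lower (3.06% of all genes were) from levels of at most 2.96 and 9.62 CPM. Both lost their calls without GRD+L/D+L replicate 2, and Hsd11b1 also without GRD+L/D+L replicate 3 or GRwt/wt replicate 2. The chaperones Hsp90aa1 (LFC 0.21, adjusted p = 0.39), Fkbp4 (LFC 0.07) and Ptges3 (LFC 0.05) were not called. Single genes were called, all lower, among 16 contractile genes (Myocd, LFC -4.22), 28 cell cycle genes (Rrm2, LFC -1.02), 14 p53 and senescence genes (Cdkn2b, LFC -1.08) and 17 ATF4 stress genes (Cth, LFC -1.60). With 3.06% of all genes called lower, 1 call in lists of these sizes is near the share of all genes. Of 22 imprinted genes Meg3 and Kcnq1ot1 (LFC 1.26) were higher, against 2.43% of all genes. With an offset for GC content and gene length neither was called, and the LFC of Kcnq1ot1 turned to -0.32 (adjusted p = 0.65). In that fit 1 other member of the imprinted list was called higher, and the list's median was -0.27. Kcnq1ot1 also lost its call with sex as a covariate. Of these 6 genes Cth and Meg3 kept their calls in each of the 6 fits without 1 library. Myocd kept it in 4, Rrm2 and Cdkn2b in 3 and Kcnq1ot1 in 2, all of them lost without GRD+L/D+L replicate 2. No member was called among 17 NF-kB and AP-1 factors, 23 interferon-stimulated genes, 15 antigen presentation genes or 13 genes of the IGF system, whose medians lay between -0.44 and 0.27. Without GRD+L/D+L replicate 1, however, 6 antigen presentation genes were lower (median -0.87), 2 genes of the IGF system were higher and 2 lower, 1 NF-kB or AP-1 factor was higher, and no interferon-stimulated gene was called. That fit called 3.94% of all genes higher and 6.77% lower, and the single NF-kB or AP-1 factor is near the share of all genes.

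Of the other genes followed singly, the GC and length offset ended the calls of Foxd1, Gm6166, Gm4735, Adamts4, Col5a3, Vcan, Hoxd12, Tbx4, Rrm2, Cdkn2b, Car9, Fdps, Mvd, Dkk2, Dkk3 and Fgf5. Sex as a covariate ended those of Wdr72, Foxd1, Col5a3, Rrm2, Car9, Inhbb and Dkk2 beside the sterol genes and Kcnq1ot1. Upper-quartile scaling ended those of Adamts4 and Col5a3. The replicate block ended 21 calls of genes followed singly, and the fit with no filter on low counts ended 2. With the block 5 Hox genes, 8 limb and trunk patterning factors and 3 sterol genes were lower, in a fit with 353 lower genes in all. Higher were 1 Hox gene, 2 limb and trunk patterning factors and 0 sterol genes, with 295 higher genes in all. With only the 6 libraries compared, where 8 genes were called in all, no member of the lists outside the glucocorticoid-induced genes was called.

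**Figure D4:**
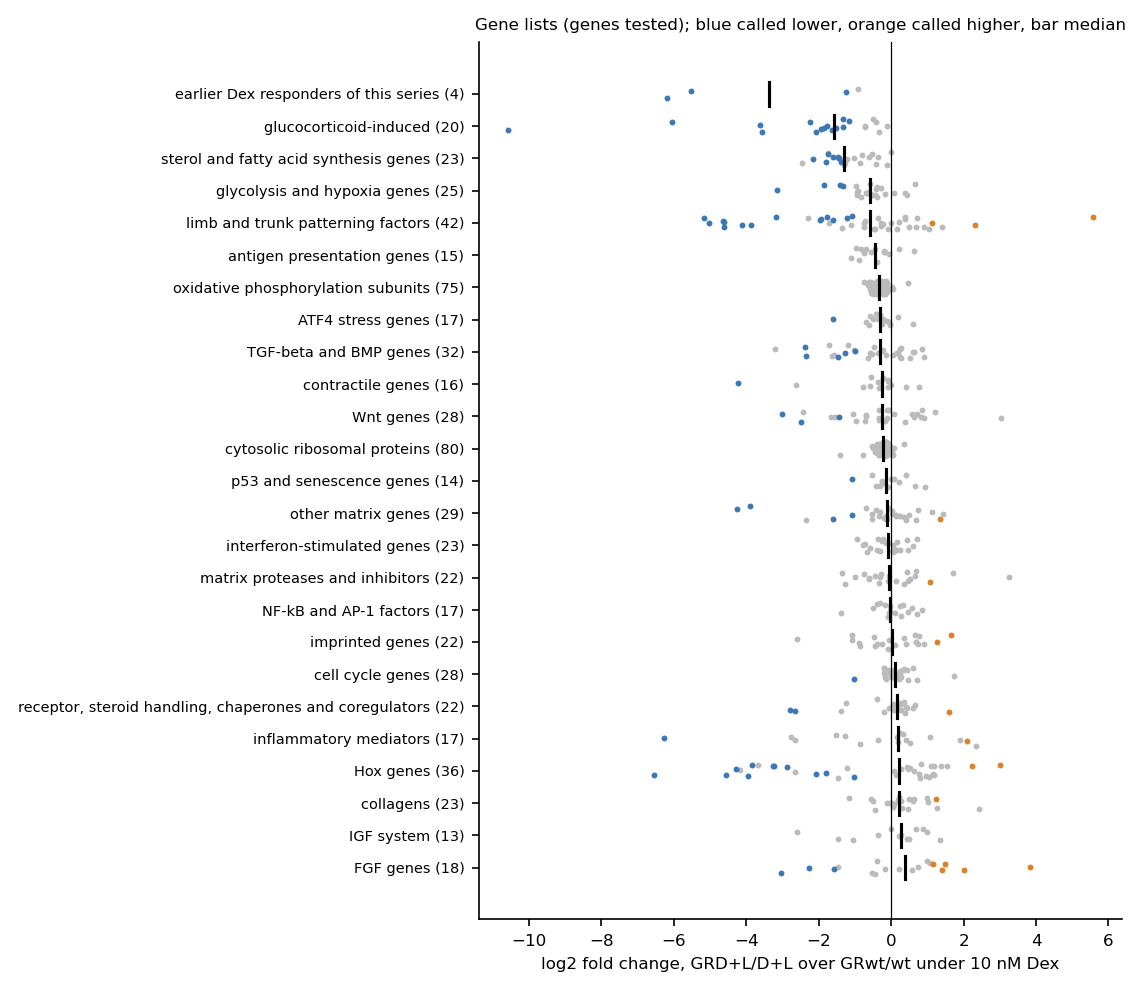
LFC of GRD+L/D+L against GRwt/wt under Dex for the members tested of 25 gene lists, 1 row per list, with the median marked. The glucocorticoid-induced and the sterol lists lie wholly below 0, and the Hox genes spread to both sides.

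Set beside the single mutants, which share the same GRwt/wt libraries, GRD/D differed from GRwt/wt under Dex in 258 genes (1.74%) and GRL/L in 885 (5.97%). The double mutant differed from GRD/D in 1086 genes (7.33%) and from GRL/L in 7 (0.0472%) in direct tests. Of the 814 genes of the main comparison, 341 also differed from GRD/D and 5 from GRL/L. Without GRD+L/D+L replicate 1 the double mutant differed from GRL/L in 459 genes. The summed level of the macrophage markers was 283 to 1804 CPM in GRD/D and 326 to 795 CPM in GRL/L, against 17.6 to 105 CPM in wild-type and 8.21 to 83.4 CPM in the double mutant cultures. Of the 12 markers, all were called lower in the double mutant than in GRD/D (median LFC -4.45), where 4.1% of all genes were, and none was called against GRL/L (median -3.79). Against wild type 5 were called higher in GRD/D (median 4.48), against 0.79% of all genes, and 10 in GRL/L (median 3.82), against 3.98%. Their part in these counts was not tested.

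For the glucocorticoid-induced list the median LFC against GRwt/wt was -1.05 for GRD/D, with 7 members called lower (0.952% of all genes tested), and -1.39 for GRL/L, with 15 called lower (1.99%). For GRD+L/D+L it was -1.59, with the 14 named. Fkbp5 reached a mean of 102 CPM in GRD/D, against 29.6 CPM in GRL/L cultures and 29.4 CPM in the double mutant. The double mutant was lower than GRD/D (LFC -1.79, SE 0.17, adjusted p = 0.00061) and did not pass against GRL/L (LFC -0.01, SE 0.17). Sgk1 was at 145 CPM in GRD/D, where it did not pass against wild type (LFC -0.29, adjusted p = 0.42), at 72.8 CPM in GRL/L and at 71.1 CPM in the double mutant. The double mutant lay below GRD/D for Sgk1 (LFC -1.03, SE 0.17, adjusted p = 0.0046) and for Crispld2 (LFC -2.62, SE 0.59, adjusted p = 0.014). In all, 4 members of the list were called lower than in GRD/D (4.1% of all genes were) and 1 was called higher (3.23% of all genes), Pdk4, at a mean of 136 against 24.9 CPM (LFC 2.46, SE 0.75, adjusted p = 0.042), with 259 CPM in replicate 1 and 88.0 and 62.1 CPM in the other mutant libraries. Tsc22d3 had a mean of 56.2 CPM in GRD/D, 42.5 CPM in GRL/L and 43.6 CPM in the double mutant, which differed from neither single mutant by the thresholds. The interaction of both changes, a departure of the double mutant from the sum of the single mutants' LFCs, was called for 455 genes (3.07%), with 143 above the sum (0.965%) and 312 below it (2.11%). The macrophage markers had median LFCs against wild type of 4.48 (GRD/D), 3.82 (GRL/L) and 0.07 (double mutant), and their part in the count was not tested.

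**Figure D5:**
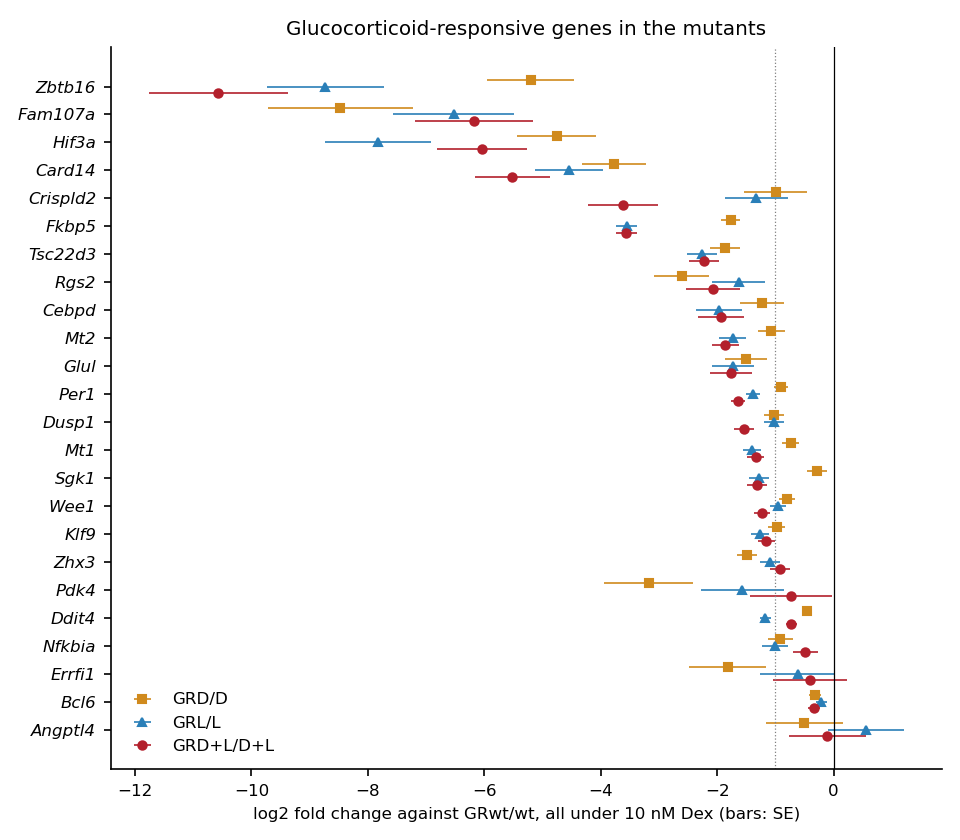
LFC ± SE against GRwt/wt under Dex of the 24 glucocorticoid-induced and earlier responding genes in each of the 3 mutants, which share the wild-type libraries. Fkbp5 and Sgk1 sit lower in GRL/L and in the double mutant than in GRD/D.

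The 7 genes that separated the double mutant from GRL/L fell into several patterns. Crabp1, a retinoic acid binding protein, was at 540, 519 and 419 CPM in GRwt/wt, 577, 596 and 654 CPM in GRD/D, 644, 577 and 578 CPM in GRL/L and 153, 70.5 and 116 CPM in GRD+L/D+L. It was low in the double mutant, and neither single mutant was called different from wild type (LFC 0.31 and 0.28). Adh7, an alcohol dehydrogenase that oxidises retinol, had means of 51.7, 45.6, 35.7 and 7.64 CPM in the same order, Aff3, a nuclear transcription factor, of 51.9, 47.8, 51.0 and 14.4 CPM, and Tmtc2, a membrane protein of the endoplasmic reticulum, of 23.1, 18.6, 29.2 and 5.79 CPM. Pde4b, a cAMP phosphodiesterase, was at 7.18 CPM in wild-type, 20.4 and 17.9 CPM in the single mutants and 4.82 CPM in the double mutant (LFC against GRL/L -1.89, SE 0.14, adjusted p = 0.0005). Gm8615 had at most 0.245 CPM in the GRD/D and GRD+L/D+L libraries, which carry the D allele, and 8.21 to 11.9 CPM in GRL/L. Gnpda1, a glucosamine-6-phosphate deaminase on the chromosome of Nr3c1, was at 71.5 to 75.4 CPM in GRD/D, 46.0 to 68.2 CPM in GRD+L/D+L, 30.4 to 35.1 CPM in GRwt/wt and 27.5 to 31.8 CPM in GRL/L.

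Position on the edited chromosome was read from the annotation. Of 51 genes tested within 2 Mb of Nr3c1, 9 were called (17.6%, against 5.49% of all genes): Nr3c1, Fgf1, Spry4, Pcdhb21, Pcdhga1, Pcdhga2, Pcdhgb8 and Pcdhgc5 were higher and AC134576.3 was lower. The 4 Pcdhg genes share exons, so reads cannot always be assigned to 1 of them. From 2 to 5 Mb 3 of 77 genes were called, from 5 to 10 Mb 3 of 46, and over the whole of chromosome 18 it was 6.98% of 430 genes. Chromosome X had the highest share of the chromosomes, 8.96% of 502 genes, and the 3 mutant cultures were male while GRwt/wt replicate 1 was female.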

How the data were processed

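The authors sequenced TruSeq libraries of total RNA and deposited 1 table of raw counts per gene, made by HISAT2 2.1.0 and featureCounts 2.0.0 on mm10 (GRCm38) per the submitters' processing notes. The annotation release and strand setting are not given in the sources used here, so overlapping and antisense genes and near-identical copies are uncertain. Of 55487 gene identifiers 55227 were matched to GENCODE M21 for names and positions, and 260 were not. Vehicle columns entered no step.

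The 12 Dex libraries were fitted with edgeR 4.0.16 (R 4.3.3, limma 3.58.1): TMM scaling, filterByExpr, 1 mean per genotype, the quasi-likelihood test, two-sided, adjusted by Benjamini-Hochberg over 14818 genes, prior count 0.125. SE is the absolute LFC over the root of F. CPM use TMM-scaled library sizes. The script was tested on simulated data. Labels name groups and replicate numbers; numbers are shared between groups but did not pair samples. Members and lists were chosen with earlier results of these data known. Named genes were Nr3c1 and the glucocorticoid lists, the 10 largest rises and falls among called protein-coding genes of at least 10 CPM without overlap, 3 each way among other biotypes under the same conditions, and up to 4 called members per list. In the lists 3 symbols were matched by synonym. Alternatives were DESeq2 1.42.0, other scalings, filters, prior counts and offsets, sex, the replicate block, the 6 libraries alone and leaving out each library. For genes at 0 a floor of 3 counts per library was chosen and turned to CPM with the smallest TMM-scaled size of a GRD+L/D+L library. Total counts were 16452539 to 21141077 per library. Some genes are not reported here.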

Additional observations from a re-analysis of the deposited data

Results flagged for a closer look

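A test of whether the double mutant's difference from GRwt/wt departs from the sum of the single mutants' differences on the log2 scale (edgeR's quasi-likelihood test over the 12 Dex libraries) called 455 of 14818 genes (3.07%), with 143 above the sum and 312 below it. Of the 50 genes named by the rules for glucocorticoid genes and largest changes, 7 were among them, all above the sum, which means that the double mutant lay less far below GRwt/wt than the sum would put it. The departure was 1.76 for Fkbp5, 1.90 for Tsc22d3, 1.09 for Klf9, 1.43 for Nfkbia, 6.54 for Hif3a, 8.82 for Fam107a and 1.66 for Zhx3. Hif3a and Fam107a were at or near 0 in all 3 mutants, so their departures rest on few counts. Both single mutants were set against the same GRwt/wt libraries, and without GRwt/wt replicate 3 the count over all genes was 292. The median LFC of 12 macrophage markers against GRwt/wt was 4.48 (GRD/D), 3.82 (GRL/L) and 0.07 (double mutant). Their part in the count was not tested.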

How the results depend on the processing

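The count of 814 genes depended on the fit. It was 2596 (1450 higher, 1146 lower) at an adjusted p alone, 8 (2 higher, 6 lower) with only the 6 libraries compared, and 337 to 1624 when 1 compared library was left out (154 to 597 higher, 183 to 1027 lower). DESeq2 gave 703 lower genes, a minimum of 10 counts in every Dex library gave 285 lower genes, and an offset for GC content and length gave 221 higher genes. The replicate block gave 648 genes, although the shared replicate numbers did not pair the samples (correlations of same-numbered deviations -0.19, -0.26 and 0.03), sex as a covariate gave 650 and upper-quartile scaling 811. The 7 genes against GRL/L became 447 with DESeq2, 11 with the replicate block, 19 with upper-quartile scaling and 6 to 459 without 1 library. The 1086 genes against GRD/D became 695 to 1395 and the 455 of the interaction became 292 to 623 without 1 library, and DESeq2 gave 867 for the interaction. In the glucocorticoid-induced list the median LFC was -1.44 with a minimum of 10 counts and -1.78 to -1.42 without 1 library, members called lower were 2 with the 6 libraries alone and 13 to 15 without 1 library, and members called higher were 0 to 1 (Angptl4, without GRwt/wt replicate 2). LFCs changed sign for Errfi1 (0.014 without GRD+L/D+L replicate 2, 0.010 without GRwt/wt replicate 2, -1.88 to 0.014 over the fits without 1 library), for Angptl4 (0.15 with the replicate block, 0.16 without GRD+L/D+L replicate 1, 1.45 without GRwt/wt replicate 2, -0.57 to 1.45 over those fits) and for Kcnq1ot1 (-0.32 with the GC and length offset). The cause was not tested in any of these. With 3 cultures per group, small changes and genes of a few counts are at the limit of what these libraries resolve.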
